A study of Mus musculus with 12 samples.

Results

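The caseins are the main proteins of milk, and their 5 mouse genes (Csn1s1, Csn2, Csn1s2a, Csn1s2b and Csn3) were followed here in mammary tumors labelled ShcA-null. Their probes were those whose gene name in the array files is a casein, under its current or older symbol (Csna, Csnb, Csng, Csnd and Csnk). This gave 5 genes and 6 probes, of 41174 gene probes on the array. A further probe of the Csn3 transcript, which the files name only by a transcript number, fell outside that rule and is given beside it. Each of 12 two-colour Agilent arrays compared the RNA of 1 tumor, of 8 in all, with a pool of NIC tumor RNA. NIC tumors carry an activated Neu (ErbB2) receptor linked to Cre recombinase under the mouse mammary tumor virus promoter, which is active in mammary epithelium, so that Cre is made in the cells that make Neu. The tumors labelled ShcA-null are in addition said to lack ShcA (gene Shc1), an adaptor that couples ErbB receptors to Ras. The first array of each tumor had the tumor RNA in Cy5 and the pool in Cy3, and tumors 1 to 4 had a second array with the dyes swapped. The age and strain of the mice, the number of tumors in the pool, the reproductive state of the mice and the deleted part of Shc1 are not given in the sources used here. Nothing in the labels says that the numbered tumors came from separate mice, so p-values measure only the spread between these 8 samples.

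Caseins are made by the secretory luminal cells of the mammary gland, mostly in late pregnancy and lactation. Csn1s1, Csn1s2a, Csn1s2b and Csn2 encode the calcium-sensitive alpha and beta caseins, whose phosphorylated serines bind calcium phosphate, and Csn3 encodes kappa-casein, which coats the casein micelle and keeps it in solution. Prolactin, acting through its receptor, the kinase Jak2 and the transcription factor Stat5, switches these genes on together with glucocorticoids and the factors Elf5 and C/EBPbeta.

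The genes lie in 1 cluster on chromosome 5. RefSeq's order there (assembly GRCm38.p6) is Csn1s1, Csn2, Csn1s2a, Csn1s2b, Prr27, Odam, BC037156 and Csn3. RefSeq promoter windows of 300 bases, from 250 before to 50 after the gene's start, matched 3 of the 5 genes. They are shown because Stat5 binds the palindrome TTCNNNGAA and because milk protein promoters are known for an octamer, ATGCAAAT. The last 150 bases before the start are printed 5′ to 3′ on the gene's strand, with matches to either motif, on either strand, in capitals.
Csn1s1 (GRCm38.p6, chr5:87666058-87666207, + strand): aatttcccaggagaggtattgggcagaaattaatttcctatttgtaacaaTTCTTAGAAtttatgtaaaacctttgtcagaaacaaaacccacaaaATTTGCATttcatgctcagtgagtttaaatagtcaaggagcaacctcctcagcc
Csn2 (GRCm38.p6, chr5:87699426-87699575, - strand): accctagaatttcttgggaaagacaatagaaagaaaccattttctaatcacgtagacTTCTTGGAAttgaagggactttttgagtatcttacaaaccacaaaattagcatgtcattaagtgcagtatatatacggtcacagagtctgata
Csn1s2a (GRCm38.p6, chr5:87774300-87774449, + strand): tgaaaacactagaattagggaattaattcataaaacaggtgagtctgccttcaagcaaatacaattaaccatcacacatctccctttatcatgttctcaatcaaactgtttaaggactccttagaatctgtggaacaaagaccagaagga
The Stat palindrome began at base -100 of Csn1s1 and at base -93 of Csn2, counted from the start. In Csn1s2a its only match began at base 21 after the start, outside the printed stretch. The octamer was matched once, on the reverse strand of Csn1s1 at base -54. Of 32851 promoter windows of this length, 8.30% held TTCNNNGAA and 1.74% held ATGCAAAT. The matches do not overlap, and a match is a run of letters, not a measured site.

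The array probes are 60 bases long, and their positions in the files refer to the mouse build mm7. They lie on chromosome 5 at 87619071-87619130 for Csn1s1 (A_51_P491378), 87629506-87629565 for Csn2 (A_51_P446395, minus strand) and 87725465-87725524 for Csn1s2a (A_51_P422143). The first Csn1s2b probe (A_51_P251664, 87751878-87755729) and the Csn3 probe (A_51_P227280, 87862437-87864389) span 3852 and 1953 bases of the genome, so each crosses at least 1 intron. The sequences of these spliced probes are printed 5′ to 3′.
Csn1s2b: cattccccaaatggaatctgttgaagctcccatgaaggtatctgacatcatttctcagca
Csn3: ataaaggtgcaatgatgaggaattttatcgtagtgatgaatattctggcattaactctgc
The second Csn1s2b probe (A_52_P413429, 87754043-87754102) lies within the span of the first, and the Csn3 probe outside the rule is A_51_P227275 (87869188-87869247). An annotation of exons and UTRs on mm7 was not used here.

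Several facts on the arrays touch every result. Over all probes kept, the swapped array labelled tumor 1 correlated best with the first array of tumor 1 (r = 0.44). The swapped arrays labelled tumors 2, 3 and 4 correlated best with the first arrays of tumors 3 (0.817), 4 (0.392) and 8 (0.681), against 0.142, 0.134 and 0.294 with their own. Means of the caseins are therefore given over both arrays of a tumor as labelled and over the first arrays alone. For other genes, means and tumor values are over both arrays as labelled unless first arrays are named. The Shc1 probe stood at 0.12 ± 0.65 (SD, n = 8; limma adjusted p = 0.729), so Shc1 RNA was not called below the pool, and it checks nothing if it lies outside the deleted part. All 7 luminal markers tested (Krt8, Krt18, Krt19, Epcam, Cdh1, Cldn3 and Cldn7) were well above background on all 12 arrays in tumor and pool, as the label of a mammary tumor asks.

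The alpha and beta caseins were far above the NIC pool in the tumors labelled ShcA-null. All values below are log2 ratios of tumor over pool unless a linear intensity or a channel level is named, and a probe is called where its limma adjusted p is under 0.05 over all kept probes. Of the 6 casein probes, 5 passed the filter on dim probes, and 4 of them were called higher. Over all 30796 probes tested 15.3% were called, 5.19% higher and 10.1% lower. That balance rests on the scaling: 1599 probes were higher and 3100 lower, but 2788 higher and 1608 lower with median centring in place of loess, which moved the median ratio from -0.05 to 0.10. The pool is 1 control sample, so how much control tumors vary is not in any test. In bulk tumor RNA, more milk-making cells and more casein RNA per cell cannot be told apart. The plot of ratios by array shows every casein on every array.

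**Figure D1:**
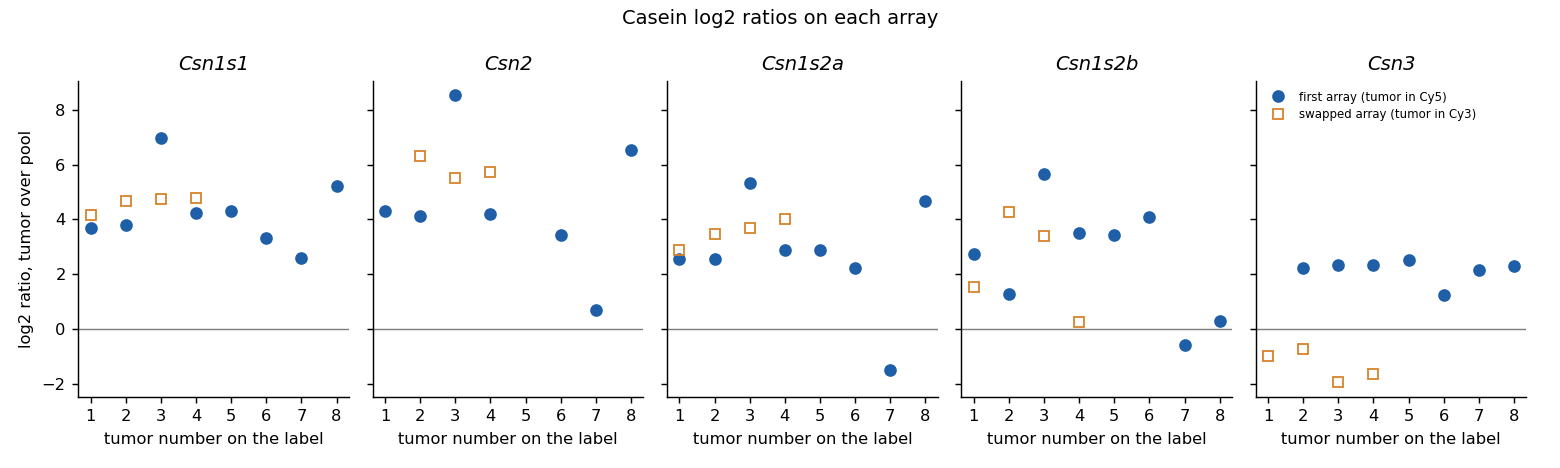
Log2 ratio of tumor over pool (y axis) for the 5 caseins against the tumor number on the label (x axis), 1 point an array; filled circles are first arrays with the tumor in Cy5 and open squares swapped arrays with the tumor in Cy3. Csn1s1 and Csn2 lie above 0 on every array measured, tumor 7 is the lowest for Csn1s2a (-1.49), and Csn3 lies above 0 on the first arrays and below 0 on the swapped arrays.

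Csn1s1, an alpha casein gene, was above the pool on all 12 arrays. Tumors 1 to 8 gave 3.70, 3.80, 6.96, 4.25, 4.29, 3.32, 2.59 and 5.22 on their first arrays, while the swapped labels 1 to 4 gave 4.16, 4.67, 4.75 and 4.79. Tumor 3 was the highest and tumor 7 the lowest, and no value overlapped the pool. The mean over tumors was 4.25 ± 1.02 (SD, n = 8), which is 19.0-fold above the pool (limma adjusted p = 0.000256; exact two-sided sign-flip p = 0.00781, the smallest that 8 tumors allow). The first arrays alone gave 4.27 ± 1.33 (SD, n = 8; limma adjusted p = 0.000455), with 6.05% of all probes called higher in that fit.

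Csn2, the beta casein gene, had the widest range of the caseins. On the first arrays it stood at 4.29, 4.14, 8.52 and 4.19 in tumors 1 to 4 and at 3.42, 0.70 and 6.52 in tumors 6, 7 and 8. The swapped arrays labelled tumors 2, 3 and 4 gave 6.31, 5.50 and 5.74. The spots of tumor 5 and of the swapped array of tumor 1 carried an outlier flag and were left out, so the mean of 4.59 ± 2.11 (SD) is over 7 tumors. That is 24.1-fold above the pool (limma adjusted p = 0.00495; exact two-sided sign-flip p = 0.0156, the smallest that 7 tumors allow). All 7 tumors lay above the pool, but tumor 7 only by 0.70, and without it the mean was 5.24. Over the first arrays alone the mean was 4.54 ± 2.46 (SD, n = 7; limma adjusted p = 0.0066).

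Csn1s2a, a second type of alpha casein, was above the pool in 7 of 8 tumors. Its first arrays gave 2.54, 2.55, 5.34, 2.90, 2.89, 2.21, -1.49 and 4.67 for tumors 1 to 8, and its swapped arrays 2.88, 3.46, 3.70 and 4.00 for the labels of tumors 1 to 4. Tumor 7 lay below the pool while the others were at least 2.21 above it. The mean was 2.75 ± 1.91 (SD, n = 8), or 6.71-fold (limma adjusted p = 0.0152; exact two-sided sign-flip p = 0.0156). Without tumor 7 the mean was 3.35. Over the first arrays alone it was 2.70 ± 2.03 (SD, n = 8; limma adjusted p = 0.0166).

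Csn1s2b, its neighbour, was uneven from tumor to tumor. The first arrays gave 2.74, 1.27, 5.67, 3.52, 3.42, 4.10, -0.57 and 0.29 for tumors 1 to 8, and the swapped arrays 1.53, 4.28, 3.40 and 0.27. Tumors 7 and 8 were both near the pool, although tumor 8 was among the highest for Csn1s1, Csn2 and Csn1s2a. In tumor 7 the tumor signal of this probe was not well above background (linear intensity 96), so the size of -0.57 is uncertain. The linear pool intensity was low too, from 126 to 366 on the first arrays. The mean was 2.32 ± 1.78 (SD, n = 8), or 5.00-fold (limma adjusted p = 0.0219; exact two-sided sign-flip p = 0.0234). The call is close to its threshold: without tumor 2, 3, 4 or 5 the limma adjusted p was 0.0502, 0.0503, 0.0507 or 0.0526. Over the first arrays alone the mean was 2.56 ± 2.08 (SD, n = 8; limma adjusted p = 0.0232). The second probe of this gene was at the edge of detection. It was well above background in the tumor on only 2 of 12 arrays, the first array of tumor 3 (1.44) and the swapped array labelled tumor 2 (1.57), and in the pool on 0 of 12. It did not pass the filter and was not tested. Set against the lowest signal measurable in the pool channel, its tumor mean was 1.00-fold. The tumor signal too was mostly not well above background, so that value is no bound on the ratio.

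The direction of Csn3, the kappa-casein gene, changed with the dye. Its first arrays gave 2.22, 2.32, 2.35, 2.51, 1.24, 2.16 and 2.30 for tumors 2 to 8, and the spot of tumor 1 carried an outlier flag. The swapped arrays labelled tumors 1 to 4 gave -0.98, -0.73, -1.94 and -1.64. The channel labelled with Cy5 was the brighter on every array measured, whichever RNA it held. The probe outside the rule behaved likewise, from 1.56 to 2.48 on the 8 first arrays and from -2.96 to -1.66 on the 4 swapped arrays. Over all probes, 1.73% were above 0 on every first array measured and below 0 on every swapped one. When limma was given a dye term, the ratio of Csn3 was higher by 3.73 ± 0.17 (SE, 11 arrays) with the tumor in Cy5 than in Cy3, and that of the other probe by 4.31 ± 0.16 (SE, 12 arrays). The dye term itself was called for 62.2% of all probes, so its being called is common, whatever its size. In that fit the tumors stood at 0.36 for Csn3 (limma adjusted p = 0.491) and at -0.14 for the other probe (limma adjusted p = 0.822). The mean over both arrays was 1.06 ± 1.22 (SD, n = 8; limma adjusted p = 0.0885; exact two-sided sign-flip p = 0.0547). Over the first arrays alone it was 2.16 ± 0.42 (SD, n = 7; limma adjusted p = 0.00024), over the swapped arrays -1.32 ± 0.57 (SD, n = 4; limma adjusted p = 0.0331), and without tumor 1 it was 1.36 (limma adjusted p = 0.0312). The value of tumor 1 was that of its swapped array alone (-0.98), so leaving it out removed a value with the tumor in Cy3 only. All swapped arrays were on 1 slide, so slide and dye cannot be told apart there, and no direction against the pool is given for Csn3.

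For the other 4 caseins tested the dye term lay between 0.28 and 0.66 and was not called (limma adjusted p from 0.0806 to 0.534). In the same dye-term fit, in which each swapped array was grouped with the first array it correlated with best, Csn1s1 was at 4.07 (limma adjusted p = 0.00649) and Csn2 at 4.32 (0.0313). Csn1s2a was at 2.56 (limma adjusted p = 0.0584) and Csn1s2b at 2.23 (0.0502), so both kept their size and lost the call. In that fit, whose pairing was chosen after the data were seen, 2.49% of all probes were called higher. The values that the authors deposited gave means of 4.01, 4.29, 2.49, 2.50 and 1.26 for Csn1s1, Csn2, Csn1s2a, Csn1s2b and Csn3, and all 5 probes were called higher with them. For Csn3 those values too split by dye, with means of 2.02 on the first and -0.95 on the swapped arrays. On the swapped array labelled tumor 2 the tumor spots of Csn1s1 and Csn2 were saturated, and there the authors' values were 2.77 and 4.43 against 4.67 and 6.31 here. The gap was not confined to saturated spots. On the same array Csn1s2a, not saturated, was 1.54 in the authors' values against 3.46 here, and Csn1s2b, also not saturated, 4.24 against 4.28. The source of these gaps was not tested.

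**Figure D2:**
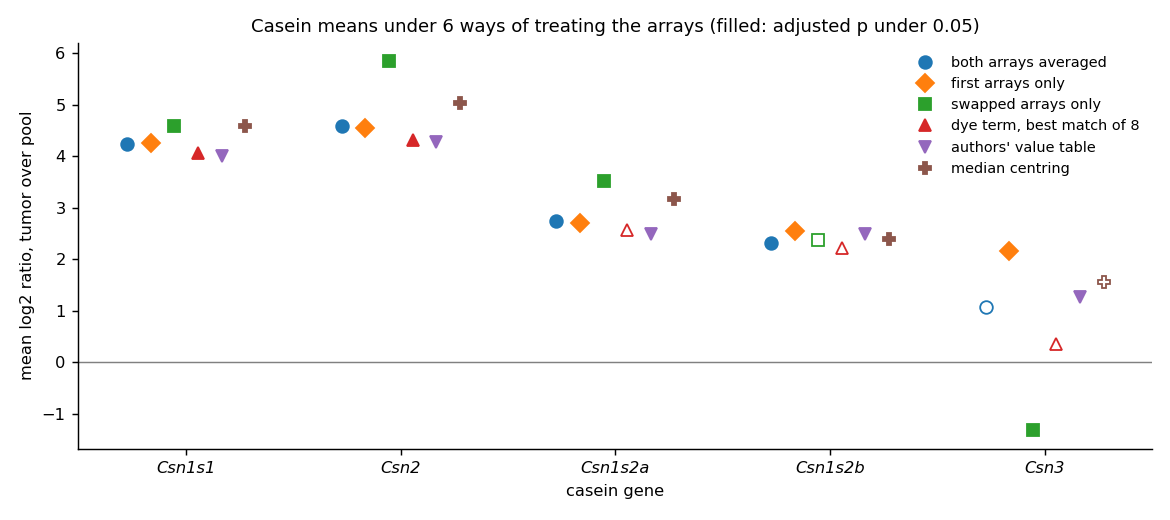
Mean log2 ratio of tumor over pool (y axis) of each casein (x axis) under 6 treatments of the arrays, 1 marker a treatment, filled where the limma adjusted p is under 0.05. Csn1s1 stays between 4.01 and 4.60, whereas Csn3 runs from -1.32 on swapped arrays to 2.16 on first arrays.

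The caseins did not stand equally far from the pool. Ratios were compared within each tumor, with 1 probe a gene, 10 pairs and exact two-sided sign-flip permutation tests adjusted over the 10 pairs. Every gap also holds the pool's own difference between the genes. The pool is 1 RNA read again on each array, so these p-values do not measure that part. Csn1s1 exceeded Csn1s2a by 1.50 ± 1.07 (SD, n = 8) and in 8 of 8 tumors (exact permutation adjusted p = 0.0391). Csn2 exceeded Csn1s2a by 1.87 ± 0.46 (SD, n = 7) and in 7 of 7 tumors, the steadiest gap of the 10 (exact permutation adjusted p = 0.0391). Csn1s1 also exceeded Csn1s2b by 1.92 ± 1.69 and Csn3 by 3.18 ± 1.73 (SD, n = 8; exact permutation adjusted p = 0.0391 each), the latter with the dye split of Csn3 in it. Csn1s1 and Csn2 differed by -0.35 ± 1.08 (SD, n = 7; exact permutation adjusted p = 0.486), and Csn1s2a and Csn1s2b by 0.42 ± 1.90 (SD, n = 8; 0.641). With 7 or 8 tumors the permutation test is coarse: on the first arrays alone the gap of Csn2 over Csn1s2a was again 1.87, but no pair passed (lowest exact permutation adjusted p = 0.0521). Leaving out tumor 1, 2, 3, 4, 5, 6 or 8 also left 0 pairs, and leaving out tumor 7 gave 7.

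Csn1s1, Csn2 and Csn1s2a varied together across tumors, whereas no correlation with Csn1s2b or Csn3 passed. These correlations are over first arrays, which share the pool and the dye orientation. Pearson's r was 0.966 between Csn1s1 and Csn2 (n = 7; exact permutation p = 0.000794, adjusted over 10 pairs 0.00397; Spearman's rho 0.893, exact permutation p = 0.0123, adjusted 0.041). Between Csn2 and Csn1s2a r was 0.965 (n = 7; exact permutation p = 0.000794, adjusted 0.00397; rho 0.893, exact permutation p = 0.0123, adjusted 0.041). Between Csn1s1 and Csn1s2a r was 0.882 (n = 8; exact permutation p = 0.0088, adjusted 0.0293; rho 0.976, exact permutation p = 0.000397, adjusted 0.00397). Without the 2 tumors farthest from the median of the first-named gene, r was 0.914, 0.983 and 0.959. With Csn1s2b, r was 0.54, 0.56 and 0.56 for Csn1s1, Csn2 and Csn1s2a (exact permutation adjusted p = 0.311 for each), and without the 2 farthest tumors it turned to -0.64, -0.82 and -0.73. Those relations therefore rest on 2 tumors. The 4 pairs with Csn3 had r between -0.14 and 0.40, and none passed (lowest exact permutation adjusted p = 0.461).

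The pool, although the same RNA on every array, did not read the same for the caseins. The linear pool intensity of Csn2 ran from 482 beside tumor 3 and 741 beside tumor 8 to 5042 beside tumor 7 on the first arrays. For Csn1s1 it ran from 1368 beside tumor 3 to 4826 beside tumor 2, and for Csn1s2a from 2005 beside tumor 8 to 11539 beside tumor 2. The tumors with the highest ratios of these genes, 3 and 8, were those beside which the pool read lowest. The SD of the normalized pool level over the 8 first arrays, on the log2 scale, was 0.79 for Csn1s1, 1.46 for Csn2, 0.95 for Csn1s2a, 0.63 for Csn1s2b and 0.53 for Csn3, against a median of 0.16 over all kept probes. Between 97.6% and 99.9% of kept probes had a lower SD than these caseins. The tumor channel moved as well: Csn2 intensity was 16775 in tumor 7 and at least 115720 in the others, and Csn1s2a intensity was 4897 in tumor 7 and at least 91333 in the others. From the tumor channel level alone, an alternative chosen after the data were seen, r was 0.957 for Csn1s1 with Csn2, 0.979 for Csn2 with Csn1s2a and 0.918 for Csn1s1 with Csn1s2a (exact permutation adjusted p = 0.0392, 0.0392 and 0.00149). Without the 2 farthest tumors these were 0.112, 0.00906 and 0.966. In that channel Csn1s1 with Csn1s2b (r = 0.805) and Csn1s2a with Csn1s2b (r = 0.73) passed too (n = 8; exact permutation adjusted p = 0.0392 for each), with r at -0.0283 and 0.215 without the 2 farthest tumors. The tumor-channel relations of Csn2 and Csn1s2b therefore rest on those tumors.

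**Figure D3:**
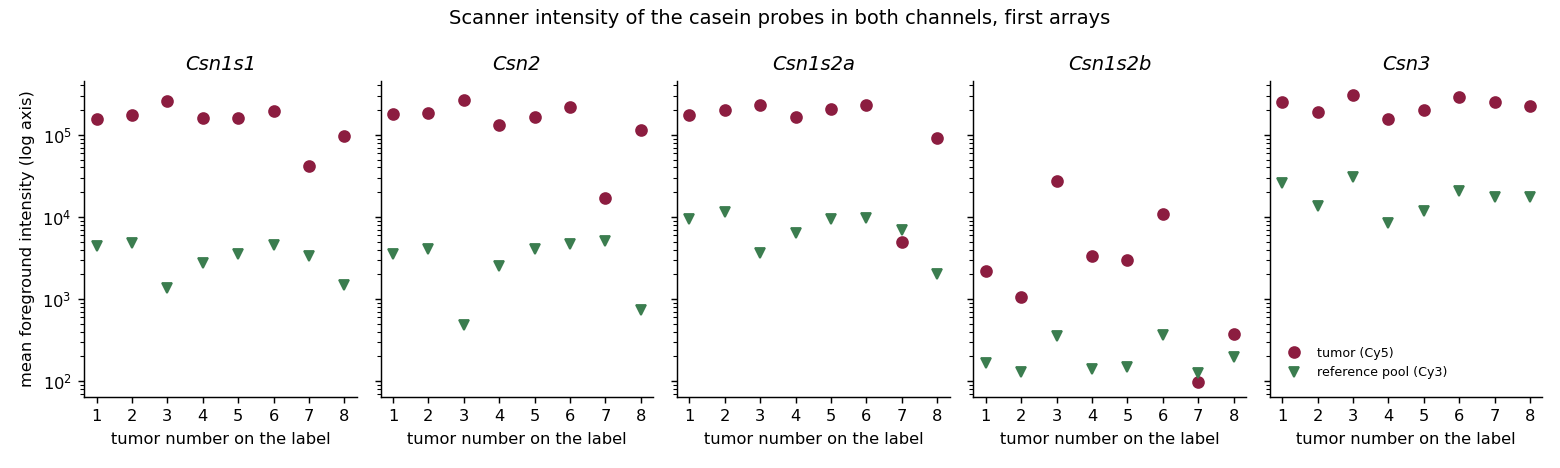
Linear mean foreground intensity on a log axis (y axis) of the tumor channel (circles, Cy5) and the pool channel (triangles, Cy3) for each casein on the 8 first arrays, by tumor number (x axis). The pool intensity of Csn2 falls to 482 and 741 beside tumors 3 and 8, and the tumor intensity of Csn1s2a falls to 4897 in tumor 7.

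Tumors 3 and 7, which on the first arrays held the highest and the lowest Csn1s1, Csn2, Csn1s2a and Csn1s2b, also stood apart for markers of other cells. In tumor 7, with the lowest Csn1s1, Csn2 and Csn1s2a, the median first-array ratio of the T cell markers with a value, of 6 tested, was 3.40, against 0.22 to 1.29 in the other tumors. That of 5 B and plasma cell markers was 3.96 there, against 0.24 to 1.66, and that of 7 adipocyte markers 1.77, against -1.74 to 1.05. In tumor 3 the median of 5 fibroblast markers was 3.62 against -1.43 to 0.62 in the others, of 7 myoepithelial markers 2.64 against 0.20 to 1.16, and of 4 skeletal muscle markers 4.61 against -0.54 to 2.75. The luminal median was 1.23 in tumor 7 and 0.72 in tumor 3, within or just above the 0.06 to 1.12 of the other tumors. A median leaves out markers without a value in that tumor, such as Cd3e in tumors 5 to 8 and Cd5 in tumor 5. The part of these other cells in the casein values was not tested.

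The neighbours of the casein cluster did not share its direction as a group. Of 17 listed, 10 were tested: 1 was called higher, 5 lower and 4 not called, with a median of -0.71. With the dye term 1 was called higher and 2 lower. Over all 20408 genes tested, with 1 probe a gene, 6.09% were called higher and 9.83% lower, and the median was -0.02. Odam, a gene of enamel and secretory epithelia that lies between Csn1s2b and Csn3, was the lowest at -3.03 ± 1.26 (SD, n = 8; limma adjusted p = 0.00224). It was between -3.98 and -2.28 in 7 tumors and -0.22 in tumor 5. Prol1, a secreted mucin gene also known as Muc10, was at -1.80 ± 1.11 (limma adjusted p = 0.0101), and Rufy3 at -0.96 ± 0.54 (limma adjusted p = 0.00951; SD, n = 8). Rufy3 was not called with the dye term (-0.65, limma adjusted p = 0.147). Jchain, which joins the chains of secreted IgA and IgM and is made by plasma cells, was higher, at 2.87 ± 0.63 (SD, n = 8; limma adjusted p = 0.000221). It was highest in tumor 7 (4.03), where Csn1s1, Csn2, Csn1s2a and Csn1s2b were lowest.

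**Figure D4:**
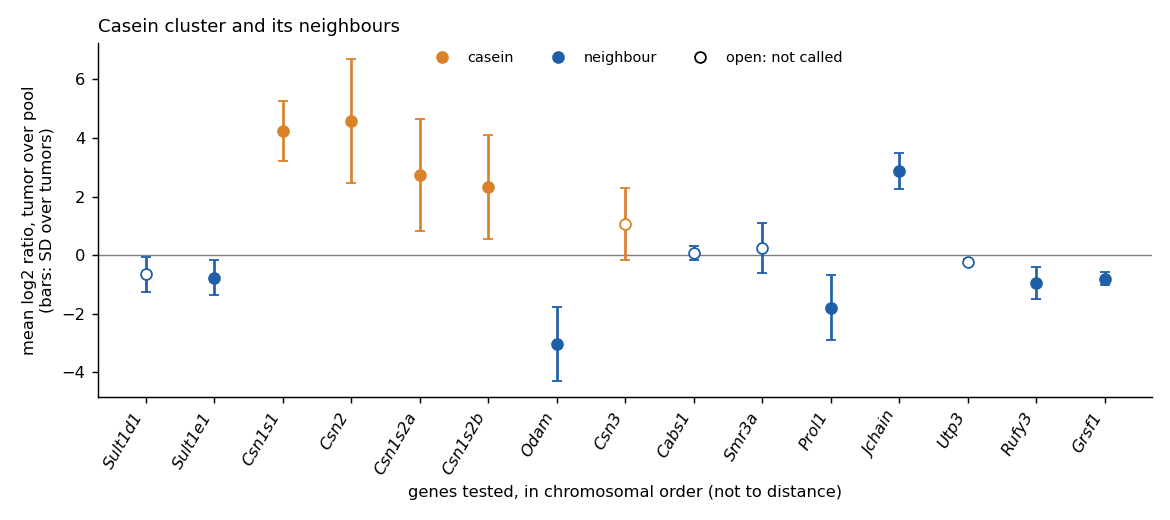
Mean log2 ratio of tumor over pool (y axis) with bars of 1 SD over the 8 tumors (7 for Csn2 and Cabs1), for the caseins and the neighbours tested, in chromosomal order without distances (x axis). Filled points were called, open points were not. Odam (-3.03) lies between the high Csn1s2b (2.32) and Csn3 (1.06).

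Other secreted milk proteins were also above the pool in part. Of 12 tested, 6 were called higher, 1 lower and 5 not called, with a median of 1.23, and 3 were called higher with the dye term. The shares over all genes tested were 6.09% higher and 9.83% lower, and with the dye term 2.49% of all probes were higher. Glycam1, a mucin-like milk protein, was at 2.87 ± 0.71 (limma adjusted p = 0.000339), and Wap, the whey acidic protein, at 2.84 ± 1.02 (limma adjusted p = 0.00141; SD, n = 8). Wap followed Csn1s1, Csn2 and Csn1s2a in its extremes, with 0.75 in tumor 7, 3.72 in tumor 3 and 4.21 in tumor 8. On the first array of tumor 3 alone Wap was at 4.52. A second Wap probe gave a mean of 3.03. Cel, the bile salt-stimulated lipase of milk, was at 1.91 ± 0.66 (SD, n = 8; limma adjusted p = 0.00141). Pigr, which carries IgA across epithelium into milk, was lower, at -1.95 ± 1.06 (SD, n = 8; limma adjusted p = 0.00631), although it was 0.28 in tumor 2. Lalba, the alpha-lactalbumin gene of lactose synthesis, named here after its values were seen, was at 1.32 ± 1.24 (SD, n = 8; limma adjusted p = 0.0464, and 0.0977 with the dye term). It was highest in tumor 7 (3.12), the tumor with the lowest Csn1s1, Csn2 and Csn1s2a.

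Few genes of the milk fat globule and milk fat were called. Of 12 tested, 2 were higher, 0 lower and 10 not called, with a median of 0.32, against 6.09% higher and 9.83% lower over all genes tested. Fabp3, a fatty-acid carrier of the secretory gland, was at 2.47 ± 0.56 (SD, n = 8; limma adjusted p = 0.000256), from 1.70 in tumor 7 to 3.29 in tumor 8. The first array of tumor 3 alone gave 3.80 for Fabp3. Xdh, the gene of a protein of the fat globule membrane, was at 0.64 ± 0.40 (limma adjusted p = 0.0182; SD, n = 8), but was not called without tumor 4 (0.61, limma adjusted p = 0.0551), and a second Xdh probe gave -0.26 (limma adjusted p = 0.765).

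None of the receptors, kinases and transcription factors of lactogenesis tested was called above the pool by limma, and 3 were called below it. Of 7 hormone receptor genes tested, 0 were called higher by limma, 2 lower and 5 not called, with a median of -0.28. At an unadjusted p under 0.05, 1 was higher and 4 lower, against 14.0% higher and 18.5% lower over all genes tested. Prlr, the prolactin receptor, was at 0.29 ± 0.32 (SD, n = 8; limma adjusted p = 0.144), and at 0.66 (limma adjusted p = 0.0201) with median centring. With a dye term and tumors grouped as labelled it was at 0.39 (limma adjusted p = 0.0185). Other Prlr probes gave -0.41 and -0.13 (limma adjusted p = 0.468 and 0.470). Igf1r, the receptor of insulin-like growth factor, was lower at -1.12 ± 0.62 (limma adjusted p = 0.00793), and so was the estrogen receptor gene Esr1, at -0.99 ± 0.84 (limma adjusted p = 0.0362; SD, n = 8). Both were lowest in tumor 7 (-2.47 and -2.85). Esr1 lost its call with the dye term (-0.88, limma adjusted p = 0.138), with median centring (-0.90, 0.0636) and without tumor 1, 4, 5, 6 or 8 (limma adjusted p from 0.0551 to 0.0731), and a second Esr1 probe gave -0.22 (limma adjusted p = 0.192).

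Of 11 kinases and transcription factors of lactogenesis, 0 were called higher by limma, 1 lower and 10 not called, with a median of -0.08. At an unadjusted p under 0.05, 0 were higher and 2 lower, against 14.0% and 18.5% of all genes. Stat5a, the main Stat of the lactating gland, was at -0.04 ± 0.38 (limma adjusted p = 0.878), and Stat5b at -0.08 ± 0.31 (limma adjusted p = 0.678; SD, n = 8). Elf5, a factor of the secretory lineage, was at -0.09 ± 0.48 (SD, n = 8; limma adjusted p = 0.737). For these 3 the sign changed with the processing. Another Stat5b probe gave -1.06 (limma adjusted p = 0.0411) and 1 more gave -0.09. Gata3, a factor of luminal cells, was at -0.73 ± 0.41 (SD, n = 8; limma adjusted p = 0.0113), but at -0.08 (limma adjusted p = 0.822) with median centring.

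Of 9 inhibitors and repressors of casein transcription, 1 was called higher, 1 lower and 7 not called, with a median of -0.13. Over all genes tested, 6.09% were called higher and 9.83% lower. Bcl6, a repressor that competes with Stat5 for its sites, was lower at -1.18 ± 0.45 (limma adjusted p = 0.00264), in all 8 tumors from -1.59 to -0.31, and at -0.72 (limma adjusted p = 0.108) with median centring. Socs1, an inhibitor of Jak2, was at 0.50 ± 0.27 (limma adjusted p = 0.0185; SD, n = 8), and was not called with the dye term (0.35, limma adjusted p = 0.191) or without tumor 3 (0.0502) or 4 (0.0553). Of 11 genes of casein phosphorylation and milk calcium, 0 were called by limma, with a median of -0.30. At an unadjusted p under 0.05, 0 were higher and 4 lower, against 14.0% and 18.5% of all genes. Fam20c, the kinase that phosphorylates caseins, was at 0.22 ± 1.01 (SD, n = 8; limma adjusted p = 0.661), from -0.81 in tumor 6 to 1.84 in tumor 3.

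**Figure D5:**
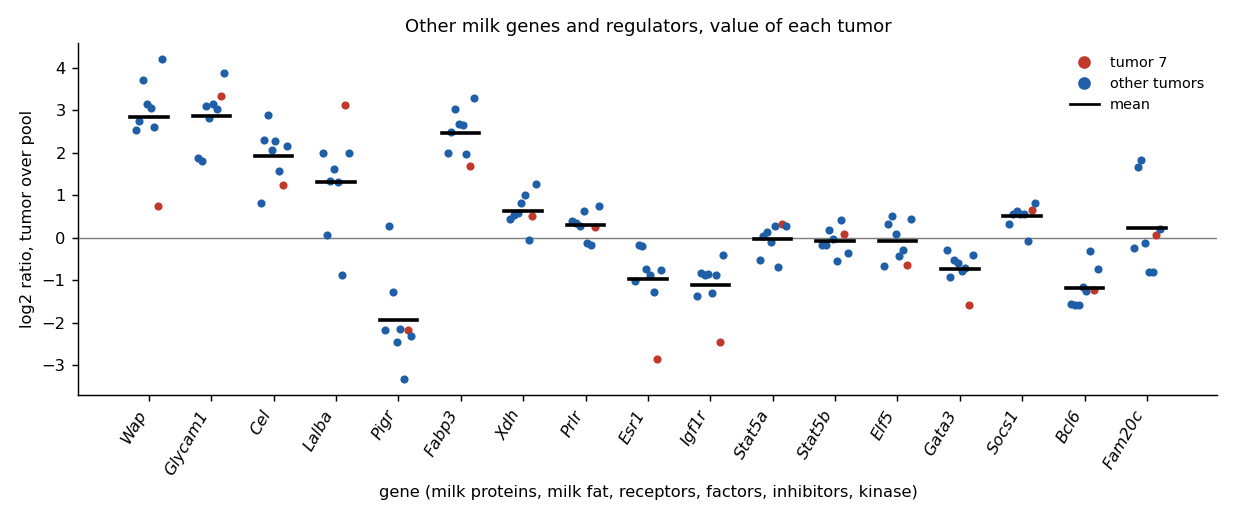
Log2 ratio of tumor over pool (y axis) of each tumor, 1 point a tumor with tumor 7 in red and the mean as a line, for other milk genes and regulators (x axis). Wap, Glycam1, Cel and Fabp3 lie above 0 in every tumor, whereas Prlr, Stat5a, Stat5b and Elf5 lie on both sides of it.

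The genes whose first-array ratios were most like those of each casein are a description over 7 or 8 arrays that share the pool. Among 13070 genes with a name in RefSeq and a value on every array, Wap was the nearest to Csn1s2a (r = 0.993), followed by Plpp3 and Zfp445 (0.937 each). For Csn1s1 the nearest were Fabp3 (0.98), Pi16 (0.968) and Crispld2 (0.96). For Csn2 they were C5ar1 (0.967), Wap (0.965) and Blcap (0.96) among 13368 genes over 7 arrays. The likeness is of pattern and not of level: the mean ratio was 2.84 for Wap and 2.47 for Fabp3, but 0.31 for Pi16, -1.63 for Crispld2 and -0.13 for Blcap. The nearest to Csn1s2b were less close, with Lrrc20 at 0.884, Nelfa at 0.851 and Cdh13 at 0.849. For Csn3 they were Aktip (0.996), Cln6 (0.996) and Tsnax (0.995) among 14459 genes over 7 arrays, and tumor 6 had the lowest Csn3 of those arrays (1.24).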

How the data were processed

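The authors' mean foreground and median background intensity per spot, with flags for outlier, saturated and well-above-background spots (other values of 0 or 1), were deposited without normalization, per the file headers (Agilent Feature Extraction 9.5.3.1). The deposited log10 ratio per spot is red over green of the processed signals, per the file headers. The authors' deposited value table is on the log2 scale and already turned to tumor over reference (slope on the scanner ratio 0.758 to 0.797 on first arrays, -0.748 to -0.715 on swapped arrays). Its column medians were -0.076 to 0.127 and its means near 0, and how it was normalized is unknown here. It served as an alternative.

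Here, background was corrected by normexp (offset 50) and ratios by loess in limma 3.58.1 (R 4.3.3, data.table version 1.17.8), leaving out outlier spots (0.47% to 13.7% of an array) and giving controls weight 0. Spots of a probe and arrays of a tumor were averaged. Probes were kept where, in at least 4 tumors, some array had the tumor or pool signal well above background. The mean of 8 tumors was tested against 0 with lmFit and eBayes, adjusted by Benjamini-Hochberg over all probes. Exact tests used Python 3.11.15 (numpy 2.4.6, pandas 2.3.3, scipy 1.17.1, matplotlib 3.10.9). A gene was represented by its brightest kept probe, named through RefSeq. The code was tested on simulated data. Named were every casein probe, at most 3 called genes a list and direction, Prlr, Stat5a, Stat5b, Elf5 and Fam20c, the 3 nearest genes of each casein, and Shc1. The members and lists were chosen with earlier results of these data known. The number of arrays limits the precision. Protein sequences were not used here.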

Additional observations from a re-analysis of the deposited data

Results flagged for a closer look

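Dixon's test sets the gap of the farthest value against the range of its group. It was run for every casein probe, also the one outside the rule, over tumor means and over first arrays. Values far from the others of their group were found in 3 casein probes. Chance gives about 1 in 20 groups, and both groups of a probe share arrays, so this count of probes cannot be set against that rate. Csn1s2a in tumor 7 (-1.49) stood apart from the other 7 tumors, both over tumor means and over first arrays. Csn3 in tumor 6 (1.24) stood below the other 6 first arrays measured. The second Csn1s2b probe (A_52_P413429), which did not pass the filter, stood apart on the first array of tumor 3 (1.44). It was well above background in the tumor there and on the swapped array labelled tumor 2 (1.57), and in the pool on 0 of 12 arrays. These arrays correlate with each other better (r = 0.817) than either does with its own pair. Both Csn3 probes differed between dye orientations, the fitted dye term being 3.73 for A_51_P227280 and 4.31 for A_51_P227275, with every first array measured above 0 and every swapped array below 0.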

How the results depend on the processing

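Csn1s1 was called higher under every alternative run, from 3.87 without tumors 2, 3 and 4 to 4.60 with median centring. Those tumors were left out, and best matches sought among all 8 first arrays, after the data were seen. Without tumors 2, 3 and 4 the count of casein probes called was 1, and Csn2 (3.73), Csn1s2a (2.20) and Csn1s2b (1.87) lost their calls. With the dye term and best match among all 8 the count was 2, and Csn1s2a (2.56) and Csn1s2b (2.23) lost theirs. Csn1s2b also lost it on swapped arrays (2.37) and with best-matching pairs among tumors 1 to 4 (2.07), and ranged from 2.01 to 2.74 with 1 tumor left out. It was not tested where both channels had to be above background on all 12 arrays. Csn3 was called with the authors' value table (1.26), outlier spots kept (1.20) and first arrays (2.16), turned to -1.32 on swapped arrays, and ranged from 0.86 to 1.36 with 1 tumor left out. The Csn3 probe outside the rule turned to -2.31 on swapped arrays and to -0.15, -0.16 and -0.14 in the fits with a dye term (tumor as labelled, best match among tumors 1 to 4, best match among all 8). The count of differing casein pairs was 4, was 0 on first arrays, and ranged from 0 to 7 with 1 tumor left out. Of 10 correlations 3 passed, 1 without the 2 farthest tumors and 5 on the tumor channel alone. Stat5a turned to 0.0874 (authors' table), 0.00145 (scanner log ratio), 0.22 (median centring), 0.0318 (outlier spots kept) and 0.18 (first arrays), and ranged from -0.0865 to 0.0576 with 1 tumor left out. Stat5b turned to 0.45 (median centring), 0.75 (swapped arrays) and 0.13, 0.26 and 0.21 (dye term, in the order above). Elf5 turned to 0.52 (median centring), 0.51 (swapped arrays), and 0.10 and 0.13 (the first and second dye fits). Fam20c turned to -0.32 without tumors 2, 3 and 4 and ranged from -0.00861 to 0.369 with 1 tumor left out. Over tumor means, r with Csn3 turned to -0.0971 for Cln6 and -0.0355 for Tsnax. Without tumors 2, 3 and 4 Odam, Prol1, Wap, Xdh, Esr1, Igf1r, Gata3, Socs1 and Bcl6 lost their calls too, and on swapped arrays Prol1, Rufy3, Pigr, Xdh, Esr1, Gata3 and Socs1. The causes were not tested, except that fits with fewer tumors have less power by construction. Signal over background limits the second Csn1s2b probe, and the first in tumor 7.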
